A study of Mus musculus with 12 samples.

Results

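The comparison of ribosome-bound RNA with total RNA in wild-type mouse heart rests on 6 of the 12 libraries of the series, chosen by their labels: 3 ribosome pulldown libraries (IP) and 3 total RNA libraries (Input). Both groups came from adult hearts labelled WT, with biological triplicates according to the series design, and the libraries from hearts without Rpl3l were not used. The method, Nano-TRAP, couples translating ribosome affinity purification to nanopore sequencing of native cDNA molecules. For IP, hearts were exposed to cycloheximide at 100 µg/mL on excision, homogenised in a buffer that also held the drug, heparin and detergent, and incubated with anti-HA antibody and Protein A/G beads, after which RNA was purified on RNeasy columns. For Input, RNA was taken from heart homogenates with TRIzol, and the labels name no cycloheximide step for it. Both kinds of RNA were selected on oligo(dT) beads and sequenced as barcoded direct cDNA on a MinION. The fraction, the drug and the purification chemistry therefore changed together and cannot be told apart. The labels do not say which protein or which cells carried the HA tag, which chambers were taken, the strain or sex of the mice, or whether an IP and an Input library came from 1 heart. Of 55401 gene identifiers listed, 5920 passed a single filter on low counts and were tested.

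Ribosomes are built from a small and a large subunit, and a pulldown through an epitope on the ribosome recovers the mRNAs that ribosomes hold at that moment. The share of an mRNA that is on ribosomes depends on how often it is initiated, on how much of it lies in the nucleus or in untranslated particles, and on which cells contribute tagged ribosomes. mRNAs for ribosomal proteins and several translation factors begin with a C followed by a run of pyrimidines, the 5′ terminal oligopyrimidine (TOP) motif, and are known for moving between ribosomes and untranslated particles through mTOR and the binding protein Larp1.

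The libraries held 356705 to 684762 counts, with IP deeper (549358 to 684762) than Input (356705 to 443177), and 3 counts in a library corresponded to 4.38 to 8.41 CPM, the count scaled to a common library total. Between 11894 and 12389 genes had at least 1 count in a library, and coding genes took 96.6 to 97.7% of counts. Globin mRNAs took 2.36 to 17.3% of IP and 1.74 to 13.8% of Input, so the groups overlapped in blood content. Log2 CPM correlated at 0.932 to 0.941 between IP libraries, 0.911 to 0.930 between Input libraries and 0.841 to 0.869 between a library of each kind, across genes, which are not independent replicates. All 37 mitochondrially encoded genes, Malat1 and Actc1 are listed at 0 in all 6 libraries, so nothing is said of their levels. The cardiomyocyte identity of the tissue was checked with Myh6, Myl2, Tnnt2, Tnni3, Ryr2, Pln and Mb, which had between 201 and 10873 counts in every library. Levels below are CPM scaled by trimmed mean of M values (TMM), fold changes are those of edgeR's quasi-likelihood fit on the 6 libraries, and p-values are adjusted by Benjamini-Hochberg over the 5920 genes.

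At an adjusted p of 0.05, 478 genes were higher in IP (8.07% of genes tested) and 690 were lower (11.7%), together 19.7%, and the median log2 fold change of all tested genes was 0.02. Of the called genes, 188 higher and 380 lower ones differed by more than 2-fold. The shares of 8.07% and 11.7% are the background for the counts of list members given below. All 3 IP libraries lay on 1 side of all 3 Input libraries for 465 of the higher genes and 672 of the lower genes. Such separation, upward or downward, was seen in 17.3% and 18.8% of all tested genes. The count of higher genes was 257 with the DESeq2 test, 295 without Input replicate 1 and 250 without the 2 libraries richest in globin, IP replicate 2 and Input replicate 3.

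**Figure D1:**
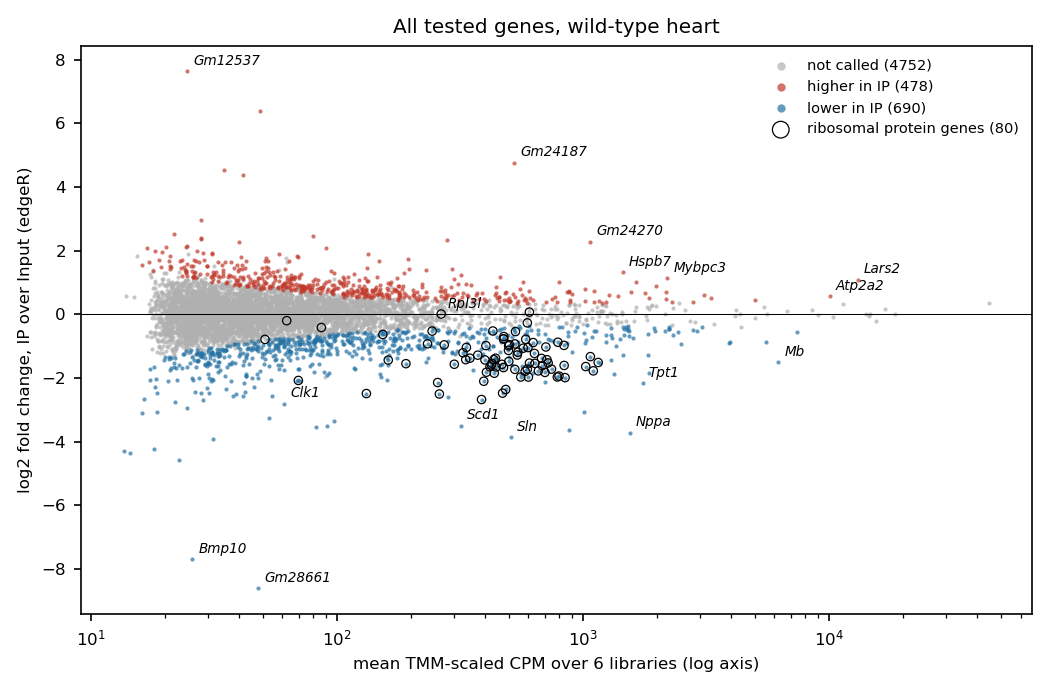
Each point is 1 of the 5920 tested genes, with the mean TMM-scaled CPM of the 6 wild-type libraries on a log axis and the edgeR log2 fold change of IP over Input on the y axis. Red points are the 478 genes higher in IP, blue points the 690 lower, and open circles the 80 ribosomal protein genes, which lie mostly below 0. Genes with no count in 1 group, such as Bmp10, Gm28661 and Gm12537, are drawn at fitted values that depend on the prior count.

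Cytosolic ribosomal protein mRNAs were lower in IP almost throughout. All 32 tested small-subunit genes and 42 of 48 tested large-subunit genes were lower in IP, with medians of -1.47 and -1.42, and no member of either list was higher by edgeR, by DESeq2 or at an unadjusted p of 0.05. The genes together took 1.77 to 2.81% of all counts in IP and 5.12 to 5.49% in Input. Across the alternatives tried with these genes in the fit, 69 to 75 of the 80 were lower. The drop was uneven, from -2.67 for Rps12 to 0.07 for Rpl4.

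Windows around the annotated starts were searched for pyrimidine runs like that of a TOP mRNA. RefSeq promoter windows (GRCm38.p6) were searched on the gene's strand for a C followed by at least 7 further C or T between 25 bases before and 40 bases after the RefSeq start. Stretches of 30 bases are shown 5′ to 3′ with the run in capitals, and only for genes whose window held a run. They cover 4 of the lower genes, picked from ribosomal protein genes of small p, and Rack1 and Eef1a1 as TOP mRNAs outside those lists. Tpt1 and Eef1b2 were looked up as well, and no window with a run was found for them. Rpl3l, which did not differ, is also shown.
Rps12, chr10:23787181-23787210, minus strand: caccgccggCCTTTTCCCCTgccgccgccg
Rps15a, chr7:118116143-118116172, minus strand: gcccggcccaCTCTCTTTCTgccatcttcc
Rpl39, chrX:37085173-37085202, minus strand: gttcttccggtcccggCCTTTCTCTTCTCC
Rpl11, chr4:136053357-136053386, minus strand: cggaagtCTCCCTCTCTCTTCCTgttctcc
Rack1, chr11:48800347-48800376, plus strand: gaggccgCTCTTTCTTTTTCTCCacagggt
Eef1a1, chr9:78481710-78481739, minus strand: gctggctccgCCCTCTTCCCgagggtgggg
Rpl3l, chr17:24727846-24727875, plus strand: tggtggggaggCCCCTTCCTaacctgcagg

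A run was found in 47 of the 60 tested ribosomal protein genes with a window (78.3%), in 7 of 13 other TOP mRNAs (53.8%) and in 1092 of 4539 other tested coding genes (24.1%), against 20.4% of all 32851 windows of the table. Outside the TOP lists, genes with a run had a median log2 fold change of 0.03 and those without one 0.01, and 10.3% and 10.8% were lower in IP. Among ribosomal protein genes the 47 with a run had a median of -1.48 and the 13 without one -1.28, and 91.5% and 92.3% were lower in IP. The marked runs begin at 8 (Rps12), -15 (Rps15a), 36 (Rpl39), 14 (Rpl11), -6 (Rack1), -5 (Eef1a1) and 31 (Rpl3l) bases from the RefSeq start, with negative values before it. A match describes letters in the window and is not a mapped transcript start.

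Rps12, a small-subunit protein, had 91.4, 85.3 and 139 CPM in the IP libraries and 687, 628 and 692 in the Input libraries. The highest IP value was far below the lowest Input value, and the level in IP was lower by 2.67 ± 0.17 on the log2 scale (edgeR adjusted p = 3.57e-10). Throughout, ± is an approximate standard error, the size of the log2 fold change divided by the square root of edgeR's F statistic. Rps15a, another small-subunit protein, had 112, 115 and 207 CPM in IP and 844, 747 and 804 in Input, again without overlap, and its log2 fold change was -2.47 (adjusted p = 1.56e-09). Rps14, a protein of the small subunit's platform, had 337, 354 and 330 CPM in IP against 1352, 1127 and 1575 in Input (log2 -1.99 ± 0.13, adjusted p = 5.94e-10). The 3 IP values of Rps14 lay within a narrow band and none came near the Input values.

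In the large subunit, Rpl22 had 74, 71.9 and 88.6 CPM in IP and 460, 366 and 505 in Input (log2 -2.50 ± 0.17, adjusted p = 7.73e-10). Rpl39, which lines the peptide exit tunnel, had 171, 134 and 169 CPM in IP and 809, 698 and 932 in Input (log2 -2.36 ± 0.15, adjusted p = 3.69e-10). Rpl11, known for binding Mdm2 as part of the 5S particle, had 306, 288 and 334 CPM in IP and 1139, 984 and 1155 in Input (log2 -1.82). Every IP library lay below every Input library for these 3 genes.

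Rpl3 is made in most tissues, and its paralog Rpl3l takes its place in many ribosomes of striated muscle. Rpl3 had 78.3, 102 and 81.7 CPM in IP and 215, 247 and 246 in Input, with no overlap (log2 -1.43 ± 0.18, adjusted p = 2.85e-06). Rpl3l had 264, 264 and 271 CPM in IP and 218, 303 and 272 in Input, so the groups overlapped (log2 0.01 ± 0.15, adjusted p = 0.965). The difference between the paralogs' fold changes was not tested. The other large-subunit genes that missed the threshold were Rpl4 (0.07), Rpl10 (-0.20), Rpl7 (-0.26), Rpl22l1 (-0.41) and Rpl9 (-0.78, adjusted p = 0.0546). Ribosomal protein genes have many processed pseudogenes, and the sources used here do not give the rule by which reads were counted, so part of the reads of a member could be placed elsewhere.

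Short transcripts in general were lower in IP, and ribosomal protein mRNAs are short, so the groups were also compared at like length. Of transcripts of 494 to 1908 bases, 65 ribosomal protein genes had a median of -1.42 and 92.3% were lower, and 1441 other coding genes had a median of -0.26 and 22.1% were lower. At like coding length (249 to 810 bases) the medians were -1.42 for 65 ribosomal protein genes and -0.21 for 1607 others. A smooth trend on transcript length was also fitted to the other genes, with ribosomal protein genes left out of the fit. With that trend removed from all genes, 69 of 80 ribosomal protein genes were lower, with a median of -1.11. The part of length in their difference was not tested.

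**Figure D2:**
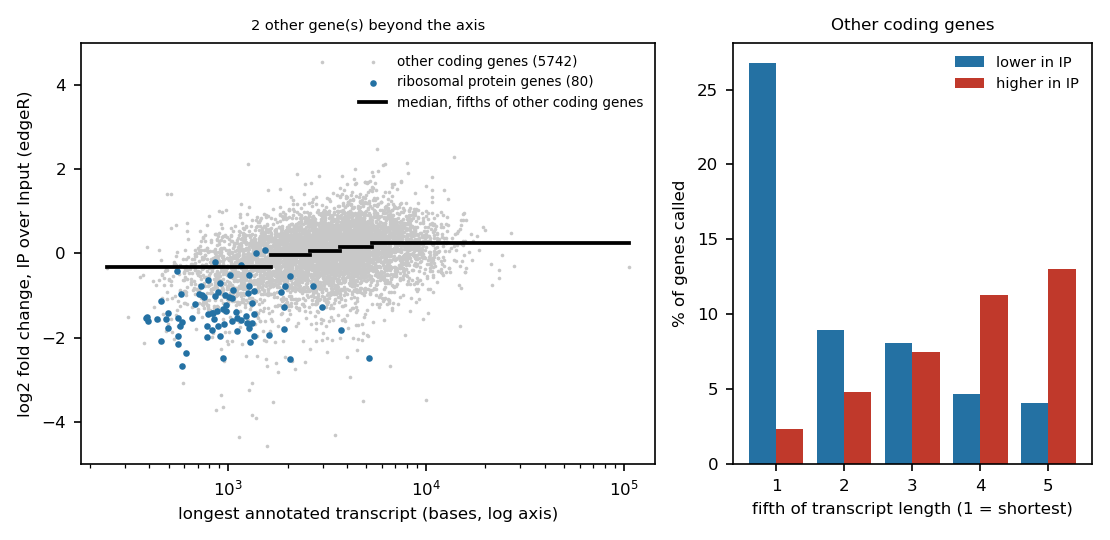
Left, edgeR log2 fold change of IP over Input against the length of the longest annotated transcript (log axis) for 5742 other coding genes in grey and 80 ribosomal protein genes in blue; black lines are medians of the grey genes in 5 bins of about equal number and rise from -0.32 to 0.24, and the number of grey genes outside the plotted range is given above the panel. Right, the percent of other coding genes lower (blue) and higher (red) in IP in each length bin; the lower share falls from 26.8% to 4.09% and the higher share rises from 2.35% to 13%.

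Over the rest of the coding genes the fold change was graded with length. Genes were split by transcript length into 5 bins of about equal number. In the shortest bin (243 to 1648 bases) 26.8% of 1149 genes were lower and 2.35% higher, and in the longest bin (5316 bases and above) 4.09% of 1148 were lower and 13% higher. Spearman's rho across the 5742 genes was 0.32 for transcript length, 0.28 for coding length, 0.25 for 3′ UTR length, 0.16 for exon number, 0.08 for 5′ UTR length and 0.05 for GC content. These are descriptions across genes that share libraries. At the far end of the length range, of 24 tested giant muscle and cytoskeletal transcripts 2 were higher and 4 lower. Dmd, which encodes dystrophin, had 30.5, 26.8 and 40 CPM in IP and 97.8, 121 and 102 in Input, without overlap (log2 -1.72 ± 0.26, adjusted p = 5.13e-05). Ttn, which encodes titin, had overlapping values (log2 -0.32 ± 0.13, adjusted p = 0.0846). The 4 lower members of that list were 2 without IP replicate 1. The 2 higher members (Ryr2 and Ahnak) were 1 without IP replicate 1, IP replicate 3, Input replicate 2 or Input replicate 3, and 0 with the length trend removed.

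Among TOP mRNAs outside the ribosomal protein lists, 9 of 19 were lower and 2 higher, with a median of -0.42. Tpt1, the translationally controlled tumour protein, had 601, 483 and 840 CPM in IP and 2775, 3023 and 2756 in Input (log2 -2.15 ± 0.16, adjusted p = 1.84e-09). Every Input library was more than 3-fold above every IP library. Rack1, a scaffold protein of the small subunit, had 242, 212 and 351 CPM in IP and 594, 528 and 571 in Input (log2 -1.07). Eef1b2, Btf3, Eef1g, Eif3e, Eif3f and Eif3k were also lower, from -0.62 to -1.20. The 2 higher members, Naca and Eif3l, lost their calls with the DESeq2 test, and between 0 and 1 member was higher when any 1 library was left out. Eef2, the translocation factor, had 635, 565 and 627 CPM in IP and 663, 776 and 748 in Input (log2 -0.26 ± 0.12, adjusted p = 0.148).

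The 2 elongation factor 1 alpha genes moved in opposite directions. Eef1a1, the form of most tissues, had 149, 167 and 179 CPM in IP and 538, 514 and 594 in Input (log2 -1.73 ± 0.14, adjusted p = 9.87e-09). Eef1a2, the form of adult muscle and neurons, had 962, 1102 and 1144 CPM in IP and 609, 737 and 620 in Input (log2 0.70 ± 0.12, adjusted p = 0.000275). The fractions did not overlap for either gene.

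Of 36 tested initiation, elongation and release factors, 5 were higher and 4 lower in IP, with a median of 0.00. These are 13.9% and 11.1%, against 8.07% and 11.7% of all tested genes. Eif4g1, the scaffold of the cap-binding complex, had 411, 403 and 417 CPM in IP and 149, 238 and 180 in Input (log2 1.11 ± 0.16, adjusted p = 3.14e-05). Its relative Eif4g2 was higher by 0.70 ± 0.12 (adjusted p = 0.000217), and Eif4h and Abce1 completed the higher group with Eef1a2. Eif4ebp1, which restrains cap-dependent initiation, was lower (53.7, 78.6 and 83.4 CPM against 176, 182 and 144, log2 -1.24 ± 0.21). Eif1, Eif5a and Eif4a1 were lower by 0.81 to 0.90 on the log2 scale.

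Of 28 tested mRNAs known for translational control, 8 were lower and 3 higher, with a median of -0.05. The ferritin mRNAs carry an iron-responsive element in the 5′ UTR, to which iron regulatory proteins bind. Fth1 had 878, 612 and 942 CPM in IP and 2936, 2652 and 3127 in Input, with no overlap (log2 -1.84 ± 0.15, adjusted p = 7.05e-09), and Ftl1 gave -1.87 ± 0.22 (adjusted p = 2.34e-06). Among selenoprotein mRNAs, Selenow gave -1.50 ± 0.16, and Gpx1 gave 0.17 and did not pass. Gpx4, Vegfa, Ddit3, Ifrd1 and Oaz1 were the other lower members. Atf4, whose upstream reading frames hold back its translation outside stress, had overlapping values of 97.2, 98.6 and 66.1 CPM in IP and 73.4, 65.4 and 88.6 in Input (log2 0.22 ± 0.24, adjusted p = 0.563). The higher members were Tfrc, Epas1 and Larp1, and 1 member was higher without IP replicate 2, without Input replicate 1 and with the DESeq2 test.

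**Figure D3:**
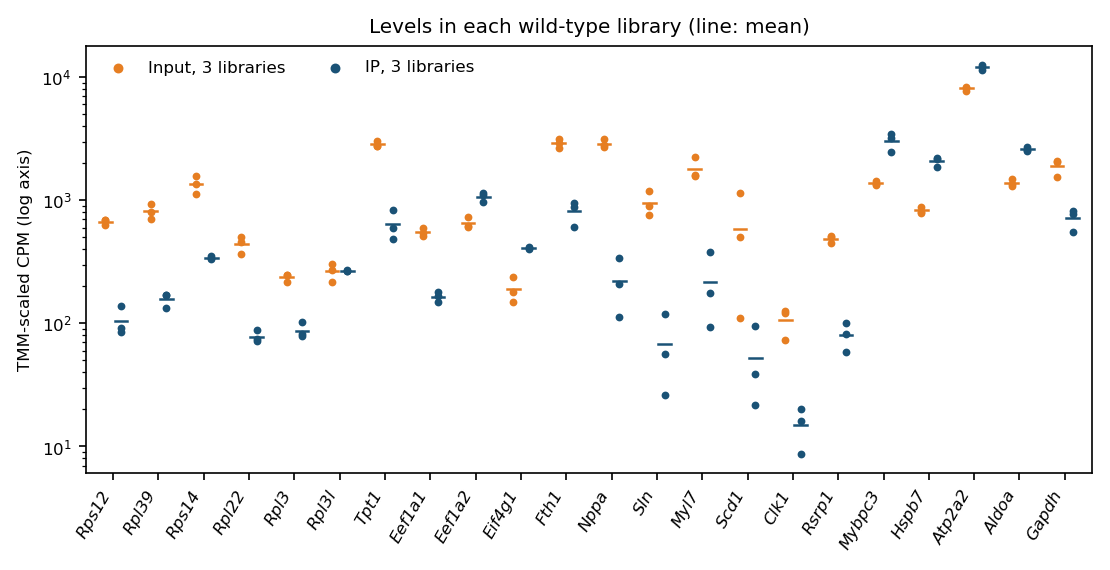
TMM-scaled CPM on a log axis for 22 genes, with each point 1 wild-type library, orange for Input, blue for IP, and a line at the mean of 3. Ribosomal protein, TOP, ferritin, atrial, Scd1, splicing kinase and Gapdh mRNAs have all blue points below the orange ones; Rpl3l overlaps; Eef1a2, Eif4g1, Mybpc3, Hspb7, Atp2a2 and Aldoa have all blue points above.

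Splicing regulators were also lower in IP. Of 40 tested, 22 were lower and 1 (Hnrnpa2b1) was higher, with a median of -0.72. Several of these genes, among them Clk1 and Clk4, are known for isoforms with retained introns that stay in the nucleus. Clk1, a kinase of SR proteins, had 16, 20.1 and 8.69 CPM in IP and 73.4, 126 and 121 in Input (log2 -2.80 ± 0.33, adjusted p = 1.78e-06). Rsrp1, an arginine and serine rich protein, had 81.2, 58.5 and 101 CPM in IP and 450, 502 and 512 in Input (log2 -2.60 ± 0.18, adjusted p = 6.21e-10). Neither gene overlapped between the fractions. Clk4 (-2.47), the cold-inducible Rbm3 (-2.08), the helicase Ddx17 (-2.05) and Pnisr (-1.71) followed, and Srsf1, Srsf2 and Srsf3, core SR proteins, had values of -0.34, -0.26 and -0.21 that did not pass. Between 16 and 20 members were lower when any 1 library was left out, and Hnrnpa2b1 lost its call without the 2 libraries richest in globin.

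Of 17 tested immediate early genes, 0 were higher by edgeR, by DESeq2 or at an unadjusted p of 0.05, and 3 were lower (Klf6, Dusp1 and Zfp36l1, from -1.02 to -1.31). Klf6 had 55.1, 55.2 and 41.7 CPM in IP and 127, 138 and 112 in Input. Among 12 tested clock genes 3 were higher and 0 lower by edgeR (0 by DESeq2, and 1 at an unadjusted p of 0.05). Dbp, a clock output factor, had 168, 192 and 148 CPM in IP and 75.8, 104 and 52.5 in Input, without overlap (log2 1.10 ± 0.21, adjusted p = 0.000807), and the others were Nr1d2 and Bhlhe41. Nr1d2 lost its call without Input replicate 2. Without IP replicate 2 a clock gene was called lower.

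Sarcomere mRNAs stayed near the median of all genes as a list (median -0.04) but held members in both directions: of 30 tested, 3 were higher and 7 lower. The lower members included the atrial light chains Myl4 (-3.64) and Myl7 (-3.07). Mybpc3, myosin-binding protein C, had 3438, 3193 and 2477 CPM in IP and 1362, 1326 and 1434 in Input (log2 1.14 ± 0.14, adjusted p = 1.90e-06). The lowest IP value exceeded the highest Input value by more than 1000 CPM. Pdlim5, a Z-disc protein, was higher by 0.74 ± 0.13 (adjusted p = 0.000316), and Csrp3 was the third member. Myh7, the slow myosin heavy chain, had 206, 110 and 210 CPM in IP and 362, 395 and 348 in Input (log2 -1.07 ± 0.19, adjusted p = 0.000261). Myh6, the main adult mouse myosin heavy chain, was lower by 0.54 ± 0.14 (adjusted p = 0.00741), a call lost without IP replicate 1 and with scaling by library totals. The ventricular light chain Myl2 had 15772, 12322 and 14467 CPM in IP and 14428, 15909 and 14163 in Input (log2 -0.06 ± 0.15), and Tnni3 (-0.02), Myl3 (-0.07) and Tpm1 (-0.22) also overlapped. With the length trend removed, 8 sarcomere members were higher.

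Calcium handling and channel genes had 6 higher and 5 lower members of 28. Atp2a2, the sarcoplasmic reticulum calcium pump, had 11513, 12566 and 12049 CPM in IP and 8232, 8305 and 7764 in Input (log2 0.57 ± 0.14, adjusted p = 0.00446). Jph2, which ties the sarcoplasmic reticulum to the T-tubule, had 451, 396 and 475 CPM against 178, 257 and 253 (log2 0.95 ± 0.16, adjusted p = 0.000134). Asph, Cacna2d1 and Atp1b1 were among the other higher members. The fractions did not overlap for Atp2a2 or Jph2. The lower members were Sln (-3.84), Sri (-0.98), Kcnj3 (-0.93), Fxyd1 (-0.60) and S100a1 (-0.41), of which Sln and Kcnj3 are also in the atrial list. Of 19 tested cardiomyocyte markers 3 were higher and 5 lower, with a median of -0.02. The lower count was 3 without IP replicate 1 or with scaling by library totals. Mybpc3 (1.14 ± 0.14) and Ckmt2 (0.60 ± 0.14) were among the higher ones. Mb, which encodes the oxygen store myoglobin, was among the lower ones. It had 3344, 2749 and 3591 CPM in IP and 9213, 10149 and 8171 in Input (log2 -1.51 ± 0.15, edgeR adjusted p = 1.19e-07).

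Of 38 tested glycolysis and TCA cycle genes 13 were higher and 2 lower, with a median of 0.27. Aldoa, the muscle aldolase, had 2717, 2556 and 2498 CPM in IP and 1311, 1360 and 1493 in Input (log2 0.90 ± 0.12, adjusted p = 1.13e-05), and Ldha gave 0.63 ± 0.12 (adjusted p = 0.000389). Pfkp, Pdhx, Hk1 and Ogdh were among the higher members, from 0.62 to 1.26. Gapdh went the other way, with 769, 552 and 815 CPM in IP and 2064, 2085 and 1549 in Input (log2 -1.42 ± 0.15, adjusted p = 3.80e-07), as did Suclg1 (-0.87 ± 0.12). Both decreases were without overlap. Gapdh has many processed pseudogenes to which reads may be assigned. The 13 higher members became 6 without IP replicate 1 and 8 without Input replicate 1 or Input replicate 3.

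Of 78 tested nuclear genes of the respiratory chain and ATP synthase, 37 were lower and 3 higher, with a median of -0.29. Atp5o, the stalk subunit of ATP synthase, had 219, 202 and 301 CPM in IP and 961, 996 and 692 in Input (log2 -1.88 ± 0.16, adjusted p = 1.51e-08). Cox7a2, a small cytochrome oxidase subunit, had 895, 819 and 831 CPM against 2042, 1847 and 2284 (log2 -1.28 ± 0.12, adjusted p = 1.03e-07). Both genes were separated in all libraries. The higher members were Atp5l (0.66 ± 0.12), Atp5a1 (0.46 ± 0.13) and Atp5f1 (0.38), and 1 of the list was higher without Input replicate 1 or without Input replicate 3. Many of these genes are short, and with the length trend removed 16 were lower and 13 higher, and with scaling by library totals 23 were lower.

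Of 74 mitochondrial ribosomal protein genes, whose products translate the mitochondrial mRNAs, 12 were lower and 1 higher, with a median of -0.05. The count of higher members was 0 without IP replicate 1 or Input replicate 1, 2 without IP replicate 2, IP replicate 3 or Input replicate 3, and 5 with the length trend removed. Mrps21 gave -0.91 ± 0.15 and Mrpl42 -0.88 ± 0.13. Among 31 genes of fatty acid uptake and oxidation 6 were lower and 2 higher. Fabp3, the heart fatty acid binding protein, had 4012, 3949 and 3810 CPM in IP and 7029, 7766 and 6573 in Input (log2 -0.86 ± 0.14, adjusted p = 7.57e-05), and Pdk4, which inhibits pyruvate dehydrogenase, gave -0.76 ± 0.14 (adjusted p = 0.000381). Neither overlapped. The 6 lower members became 3 without IP replicate 1 and 2 with scaling by library totals, and the 2 higher ones (Acsl1 and Acadl) became 0 without IP replicate 1, Input replicate 1 or Input replicate 3 and 1 without any other library.

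Chaperone genes had 7 higher and 0 lower members of 28 by edgeR (0 lower by DESeq2 or at an unadjusted p of 0.05), with a median of 0.23. Hspb7, a small heat shock protein of the sarcomere, had 2212, 1856 and 2150 CPM in IP and 880, 795 and 804 in Input (log2 1.33 ± 0.13, adjusted p = 6.41e-08). Bag3, a co-chaperone of small heat shock proteins in sarcomere maintenance, had 360, 358 and 311 CPM against 198, 184 and 177 (log2 0.88 ± 0.15, adjusted p = 0.000196). The fractions were apart for both. Hspa4, Fkbp4, Hspb8, Hsp90ab1 and Hspa9 completed the group, and the count of higher members was 4 without IP replicate 1. Proteasome and ubiquitin genes had 3 higher and 4 lower of 37 (8.11% and 10.8%), close to the shares over all tested genes (8.07% and 11.7%). Within that list the 20S subunit Psma3 was lower (-1.11 ± 0.22). The higher count was 1 without Input replicate 1 or Input replicate 3.

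mRNAs for the machinery of the secretory pathway, which is translated at and builds the endoplasmic reticulum, had 7 lower and 1 higher member of 37. Ost4, a subunit of oligosaccharyltransferase, had 66.7, 63.5 and 80 CPM in IP and 176, 148 and 226 in Input (log2 -1.37 ± 0.20, adjusted p = 3.55e-05), without overlap. Sec61g, the smallest translocon subunit, gave -1.12 ± 0.23 (adjusted p = 0.00104). The 7 lower members became 3 without IP replicate 1 and 4 without Input replicate 1 or Input replicate 3. The single higher member, Srpr, had adjusted p = 0.0228 and lost its call in 6 of the 19 alternatives.

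**Figure D4:**
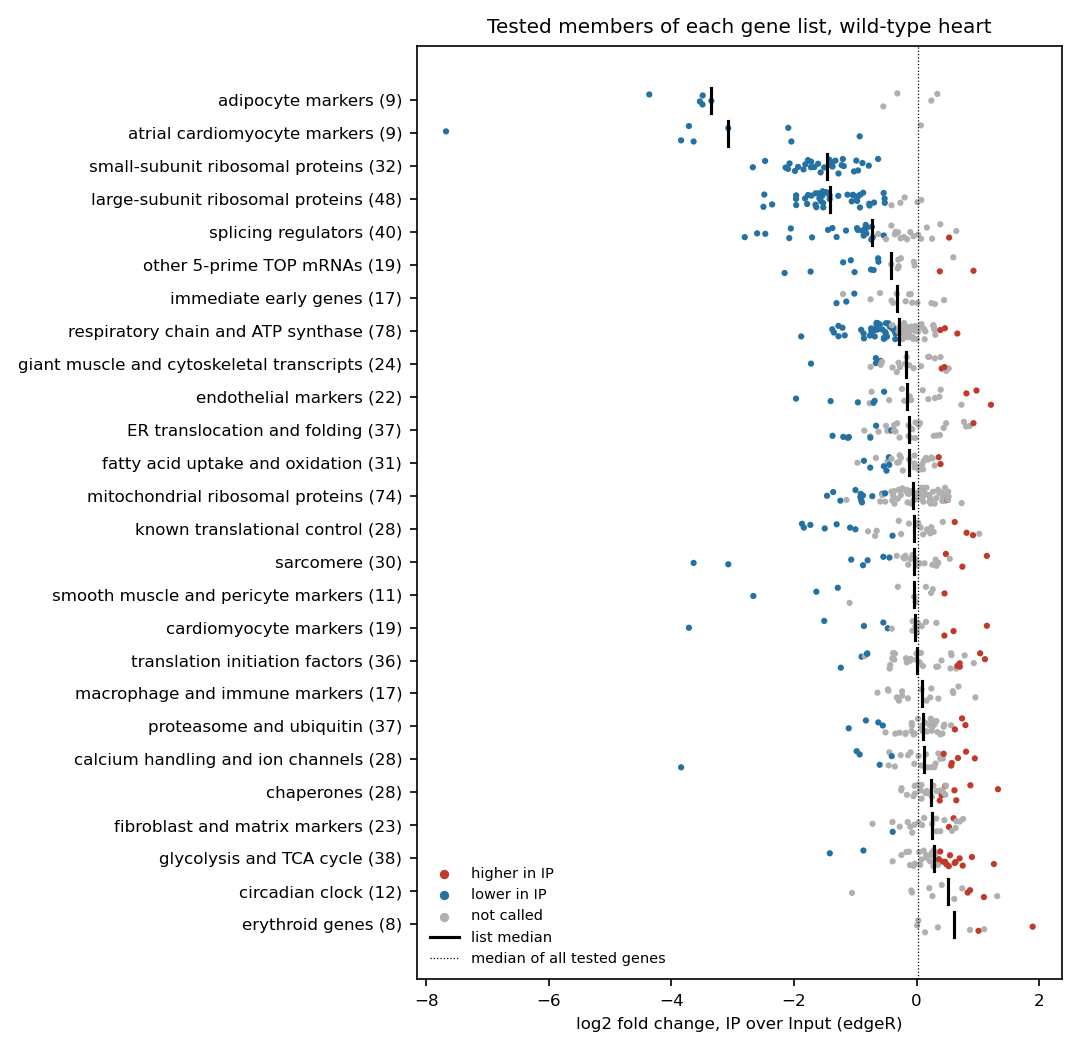
Each point is a tested member of a gene list, at its edgeR log2 fold change of IP over Input; lists with at least 8 tested members are shown, with that number in brackets. Red members were higher in IP, blue lower, grey not called; the thick line is the list median and the dotted line the median of all tested genes, 0.02. Adipocyte, atrial and ribosomal protein lists lie furthest to the left, and the leftmost atrial point, Bmp10, is a fitted value for a gene with no IP count.

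Atrial mRNAs were far lower in IP. Of 13 atrial markers 9 were tested and 8 were lower in IP, with a median of -3.07, and 8 were lower when any 1 library was left out. The summed level of the tested markers was 1339 to 2070 CPM in IP and 7743 to 9644 in Input. Nppa, atrial natriuretic peptide, had 210, 112 and 337 CPM in IP and 2699, 2831 and 3117 in Input (log2 -3.71 ± 0.23, adjusted p = 3.57e-10). Sln, the atrial inhibitor of the calcium pump, had 26.1, 56.8 and 120 CPM against 902, 766 and 1191 (log2 -3.84 ± 0.28, adjusted p = 1.53e-09). IP replicate 3 was the highest IP library for both, and stayed many fold below all Input libraries. Myl4 and Myl7, the atrial myosin light chains, gave -3.64 ± 0.28 and -3.07 ± 0.28. Bmp10, a growth factor made by atrial muscle, had 0 counts in all IP libraries and 17, 21 and 19 in Input, which is at least 31.4-fold lower when 3 counts over the IP group are taken as the limit. Pam, an enzyme of peptide maturation abundant in atria, gave 0.07 and did not pass. In such bulk samples fewer cells of a type and less ribosome-bound RNA per cell cannot be told apart.

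Adipocyte genes followed the same direction with wide spread in Input. Of 17 markers 9 were tested and 5 were lower in IP, with a median of -3.35. Members with few IP counts, such as Cfd and Fasn, passed the filter through their Input counts. With a stricter filter of at least 30 counts in at least 3 libraries, 4 members were tested and 1 was lower. Scd1, a fatty acid desaturase, had 21.8, 38.5 and 95.6 CPM in IP and 506, 112 and 1139 in Input (log2 -3.49 ± 0.52, adjusted p = 4.18e-05). Cfd, the secreted protease adipsin, had 11.6, 8.36 and 31.3 CPM against 183, 65.4 and 282 (log2 -3.35 ± 0.44, adjusted p = 7.79e-06). Input replicate 2 was the lowest Input library for both and still lay above every IP library. Fasn gave -3.49 ± 0.56, and Retn and Car3 were also lower. The defining markers Adipoq and Plin1 had 5 and 1 counts over the IP libraries and 63 and 24 over the Input libraries. Because Lpl, also made by cardiomyocytes, dominates the list, its summed level overlapped (5940 to 6565 CPM in IP, 5507 to 6937 in Input).

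Markers of other heart cell types were present in both fractions. Of 23 fibroblast and matrix markers 2 were higher and 1 lower, with a median of 0.25. Sparc, a matrix glycoprotein, had 680, 652 and 704 CPM in IP and 487, 412 and 443 in Input (log2 0.60 ± 0.13, adjusted p = 0.00142), and Mgp gave 0.53 ± 0.13, a call lost without Input replicate 2. The lower member, Gsn, had adjusted p = 0.0277, and the count of lower members was 0 without IP replicate 1, IP replicate 2, Input replicate 1 or Input replicate 3 and 2 without IP replicate 3. Of 17 macrophage and immune markers 0 were called in either direction by edgeR or by DESeq2 (2 higher at an unadjusted p of 0.05), and 1 was higher without IP replicate 3 or Input replicate 3 and in 4 other settings. The part of cell composition in the differences above was not tested.

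Endothelial markers went in both directions, with 6 lower and 3 higher of 22. Egfl7, a secreted vascular protein, had 71.1, 66.9 and 45.2 CPM in IP and 222, 250 and 253 in Input (log2 -1.97 ± 0.19, adjusted p = 9.09e-08), and the adhesion molecule Esam gave -1.40 ± 0.30 (adjusted p = 0.00164). Flt1, a VEGF receptor, had 162, 184 and 156 CPM in IP and 83.1, 121 and 78.8 in Input (log2 0.81 ± 0.19, adjusted p = 0.00465). Each of these genes was separated between the fractions, and Pecam1 (0.39), Cdh5 (-0.45) and Kdr (-0.20) did not pass. The 3 higher members (with Vwf and Tek) became 1 without Input replicate 2 and 0 without the 2 libraries richest in globin. Smooth muscle and pericyte genes had 3 lower and 1 higher of 11. Myh11, smooth muscle myosin, was lower (4.35, 6.69 and 1.74 CPM against 31.8, 21.8 and 32.8, log2 -2.66 ± 0.55, adjusted p = 0.00137). These levels are 3, 4 and 1 counts in IP and 13, 9 and 10 in Input, so the fold change rests on few counts. Acta2 gave -0.04, and the 3 lower members became 1 without IP replicate 1 or Input replicate 3. The higher member, Rgs5, lost its call without IP replicate 1, IP replicate 3, Input replicate 1 or Input replicate 2.

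The major globin mRNAs varied widely between libraries of each fraction. Hba-a1 had 11174, 40072 and 4712 CPM in IP and 15364, 3651 and 36634 in Input, with full overlap (log2 0.01 ± 0.55, adjusted p = 0.994). The highest values were in IP replicate 2 and Input replicate 3. Of 8 tested erythroid genes, with a median of 0.61, 2 were higher, Fech (1.01 ± 0.22, adjusted p = 0.00174) and Bpgm (1.89 ± 0.50, adjusted p = 0.00954). Bpgm had 132, 431 and 62.6 CPM in IP and 51.3, 26.7 and 98.4 in Input, which overlap, and lost its call without IP replicate 2, Input replicate 1 or Input replicate 2. Without IP replicate 3, 4 erythroid genes were higher.

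Among the genes with the largest increase were loci annotated as miRNAs that are far shorter than a nanopore cDNA read of an mRNA. Their sequences, from GENCODE M21 transcripts, are almost the same, and are shown because reads from 1 source could be counted at any of them; a capital marks the base that differs from Gm24270.
Gm23935, chr16:11144125-11144181 (GRCm38), plus strand: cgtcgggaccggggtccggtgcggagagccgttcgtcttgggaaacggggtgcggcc
Gm24270, chr9:56223715-56223771 (GRCm38), minus strand: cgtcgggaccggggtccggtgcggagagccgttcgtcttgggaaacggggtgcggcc
Gm24187, chr13:9834469-9834525 (GRCm38), minus strand: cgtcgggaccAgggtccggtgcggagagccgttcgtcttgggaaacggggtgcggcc
Gm25911, chr1:167340369-167340424 (GRCm38), minus strand: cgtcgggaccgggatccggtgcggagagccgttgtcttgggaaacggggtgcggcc

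Gm24187 differs from Gm24270 by G11A, with positions counted from the 5′ end of the locus, and Gm25911 is of another length (56 against 57 bases) and was not aligned. Gm24187 had 822, 619 and 470 counts in IP and 23, 13 and 6 in Input (log2 4.77 ± 0.23, adjusted p = 3.72e-12). Gm24270, which lies within Peak1 on the same strand, had 1424, 917 and 985 counts in IP and 163, 120 and 123 in Input (log2 2.29 ± 0.15, adjusted p = 5.23e-10). Gm23935, with the same 57 bases as Gm24270 but lying within Zc3h7a on the opposite strand, had 12342, 11022 and 9757 counts in IP and 6833, 6172 and 4830 in Input, which after scaling did not pass (log2 0.17 ± 0.14, adjusted p = 0.437). Gm23935 and Gm24270, identical in sequence, had unlike fold changes, a difference that was not tested, and the reads behind them cannot be told apart by these 57 bases. Lars2, which encodes mitochondrial leucyl-tRNA synthetase, is among the genes with the highest CPM here. Reads counted at Lars2 gave 19120, 17412 and 16878 CPM in IP and 7201, 10535 and 7298 in Input (log2 1.09 ± 0.16, edgeR adjusted p = 3.26e-05). The source of these reads was not examined, so the values need not be the level of its mRNA.

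Counts at nuclear copies of mitochondrial genes lay almost only in Input, and mostly at 1 locus. Mitochondrial mRNAs are translated by mitochondrial ribosomes inside the organelle. Gm28661, a pseudogene at chr1:24614885-24615565 (GRCm38), shares 100% of its 20-base words with mt-Co2, cytochrome oxidase subunit 2, so its reads cannot be told apart from mitochondrial ones. It had 0 counts in all IP libraries and 58, 33 and 20 in Input, at least 61.2-fold lower when 3 counts over the IP group are taken as the limit (adjusted p = 3.46e-08). Over the 4 listed genes with counts that share at least 50% of their 20-base words with a mitochondrial gene, IP held 1 count and Input 129. Gm28661 held 111 of the Input counts, and Gm13340, Gm29216 and Gm28438 held 12, 5 and 1, too few to compare the fractions gene by gene.

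**Figure D5:**
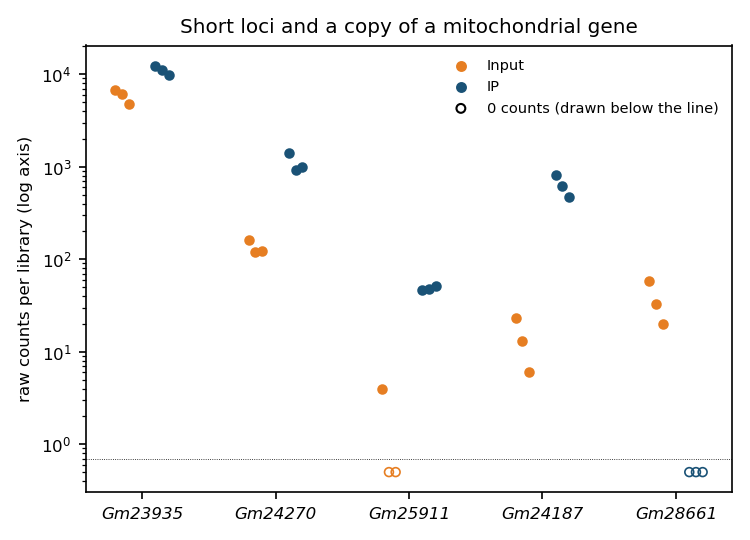
Raw counts per library on a log axis at the 4 short loci and at Gm28661, with Input in orange and IP in blue; open points below the dotted line are libraries with 0 counts. Gm24187 rises from 6 to 23 counts in Input to 470 to 822 in IP, whereas Gm28661 has counts in Input alone.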

How the data were processed

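The authors deposited 1 table of counts per library with Ensembl gene identifiers, whole numbers that were not normalised. The submitters' processing notes name minimap2 2.14, DESeq2 1.34.0 and GRCm38. The sources used here do not say how reads were assigned to genes. Symbols, lengths and biotypes came from GENCODE M21 (55141 of 55401 identifiers matched).

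Libraries were grouped by title, with 3 per group. Genes were filtered with filterByExpr (minimum count 10, minimum total 15), scaled by TMM and tested in edgeR 4.0.16 (R 4.3.3) by quasi-likelihood without a replicate term. A gene with enough counts in 1 group passed the filter whatever its counts in the other. The biological coefficient of variation was 15.5%. The p-values set the difference between IP and Input against the spread between these libraries, which edgeR moderates across genes. An exact permutation of 3 against 3 could not go below 0.10. Length trends were removed with a loess offset (span 0.5) fitted without the ribosomal protein genes. Scripts were tested on simulated counts. Alternatives used DESeq2 1.42.0 and limma 3.58.1.

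Named genes were the 10 strongest separated genes in each direction with mean CPM of at least 20, up to 2 called members of each list in each direction, the 20 most abundant genes and a fixed set; further list members were named after their values were seen. The comparison and the 28 lists were chosen with earlier results of these data known. The noncoding RNA list had no tested member. Equal replicate numbers were not used to pair the libraries, since the labels do not say whether they share a heart. Some items are not reported here.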

Additional observations from a re-analysis of the deposited data

How the results depend on the processing

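Across 19 alternatives the counts of higher and lower genes stayed within 1.5 times of 478 and 690, except that 257 genes were higher with the DESeq2 test (492 lower) and 250 without the 2 libraries richest in globin, IP replicate 2 and Input replicate 3 (474 lower), and that 295 were higher without Input replicate 1. The setting without the 2 globin-rich libraries, and one without the short loci and Lars2 (476 and 685), were chosen after seeing the data. Leaving out 1 library gave 295 to 404 higher and 515 to 621 lower genes, the fewest in both without Input replicate 1. With the replicate number as a block, 434 genes were higher and 653 lower. Deviations of same-numbered libraries from their group means correlated at -0.016, -0.044 and -0.039, and those of other pairs at 0.003 to 0.036. Correlations this near 0 cannot tell whether libraries of equal number share a heart. With library totals as the scale, 475 and 497 genes were called and the all-gene median was 0.10 in place of 0.02. No filter on low counts gave 655 and 738 of 15572 genes. Similar totals did not mean the same genes. Of the 478 higher and 690 lower genes, 477 and 544 were also called with no filter. With the length trend removed 338 and 500 were shared, and without Input replicate 2 the shared genes were 284 and 505. Gm23935 reversed to -0.46 (adjusted p = 0.0287) with the length trend removed. Of 99 named genes that were called, 72 kept the call in every alternative in which they were tested and 27 lost it at least once; 8 of 21 others gained one. The cause of these changes was not tested. At 3 counts per library, levels under about 8.41 CPM of the total could not be resolved in the shallowest library.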

Other observations

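Of 80 tested pseudogenes, 27 were higher in IP and 9 lower, with a median log2 fold change of 0.56, against 8.07% higher and 11.7% lower over all tested genes. A gene could pass the filter through the counts of 1 group alone, as the 2 described next did through IP. Being tested therefore depended in part on the counts that are compared. Gm12537, a processed pseudogene on chromosome 4, had 41, 30 and 22 counts in IP and 0 in every Input library, at least 18.7-fold higher when 3 counts over the Input group are taken as the limit. Gm12033, another processed pseudogene, had 62.4, 41.8 and 36.5 CPM in IP and 2.45, 12.1 and 13.1 in Input (log2 2.38 ± 0.47, edgeR adjusted p = 0.000821). Its counts were 43, 25 and 21 in IP and 1, 5 and 4 in Input. Reads of a pseudogene and of its parent cannot be told apart where their sequences agree.

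Sla2, an adaptor of lymphocyte signalling, had 55, 43 and 28 counts in IP and 0, 2 and 1 in Input (log2 4.53 ± 0.54, edgeR adjusted p = 1.95e-06). It overlaps Rab5if on the opposite strand over 1107 bases, and Rab5if had 18, 15 and 15 counts in IP and 36, 30 and 20 in Input (log2 -1.55, adjusted p = 0.000342). Hbb-bh2, a globin gene next to abundant globin genes, had 45, 115 and 18 counts in IP and 0, 1 and 0 in Input, although Hbb-bs overlapped between the fractions. Sla2 and Hbb-bh2 passed the filter through their IP counts alone. Tent5c, a poly(A) polymerase known from plasma cells, had 81.2, 288 and 36.5 CPM in IP and 29.3, 14.5 and 29.5 in Input (log2 2.47 ± 0.56, edgeR adjusted p = 0.00305). Its highest value was in IP replicate 2, a library rich in globin. The call was lost with the DESeq2 test, with limma-voom and without the 2 libraries richest in globin.

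The GTPase gene Arl5c had 1, 0 and 2 counts in IP and 22, 16 and 12 in Input, and Lgals4, a galectin best known from gut epithelium, had 3, 4 and 0 counts in IP and 17, 37 and 14 in Input. Both were apart in all libraries, passed the filter through their Input counts alone, and belong to no list described here.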
